A study of Homo sapiens with 18 samples.

Results

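The AP-1 and immediate early factors described here are 10 genes of the RNA-seq count table. They were taken by name, but with earlier results of these data known. They are the JUN family (JUN, JUNB and JUND), the FOS family (FOS, FOSB, FOSL1 and FOSL2), the related factors ATF3 and BATF3, and EGR1, out of 57133 genes in all. RNA was sequenced from unedited PGP1 cells (wild type, WT), a human induced pluripotent stem cell (PSC) line in wide use, grown without feeder cells, and from 2 PCGF6-KO lines made from it. Each PCGF6-KO line is a single clone, obtained with Cas9 and a pair of guides against the first exon of PCGF6, and carries a homozygous deletion. There were 2 libraries of WT, 2 of clone 1 and 2 of clone 2, and no treatment is named for any group. The comparisons asked how these factors differed between WT and the PCGF6-KO clones, and whether the clones differed from each other. No RNA-seq library is labelled as an unedited clone, so loss of PCGF6 cannot be told apart from editing and cloning. The comparison of both clones together also treats libraries of the same clone as independent. No source used here says that the libraries of a group came from separate cultures, so the p-values measure the spread between libraries, which may be technical.

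AP-1 is a dimer of basic leucine zipper (bZIP) proteins that binds a short palindromic DNA element. A JUN protein can pair with another JUN, with a FOS protein or with an ATF protein, whereas FOS proteins need a JUN partner. Most of these genes, and EGR1, a zinc finger factor outside the bZIP class, are immediate early genes, which respond to growth factors or stress within minutes and without new protein synthesis. In many cells AP-1 is known for driving genes of the extracellular matrix, of migration and of invasion. PCGF6 is a subunit of PRC1.6, a variant Polycomb repressive complex that is brought to promoters by the DNA-binding subunits MAX, MGA and E2F6.

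The 6 libraries summed to between 15877396 and 18918609 counts, and 17672 genes, among them all 10 factors, passed the filter on low counts. Levels are given as CPM, the count of a gene scaled to the size of its library by TMM, and a gene was called where its log2 fold change exceeded 0.6 in either direction with an adjusted p below 0.05. PCGF6 itself was read 268 and 300 times in the WT libraries, 99 and 103 times in those of clone 1, and 187 and 159 times in those of clone 2, so its RNA was lower in both clones but was still counted. Its log2 fold change was −1.67 in clone 1 (SE 0.14, edgeR adjusted p = 1.03e-10) and −0.77 in clone 2 (SE 0.13, edgeR adjusted p = 1.21e-05). The study checked the knockouts by Western blot, genomic PCR and qRT-PCR, and RNA counts do not measure the protein. The pluripotent marker POU5F1 had between 22722 and 31072 counts and NANOG between 1941 and 3433 counts in all 6 libraries.

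The promoters of 8 of the 10 factors were matched in RefSeq (GRCh38.p14), and FOSL1 and BATF3 were not matched. Sequences of the 250 bases before the start site are shown for JUN and JUNB, which rose in the clones, for FOS, which also rose, and for EGR1, which did not. The JUN window is chr1:58784048-58784297 on the minus strand, the JUNB window chr19:12791236-12791485 on the plus strand, the FOS window chr14:75278578-75278827 on the plus strand, and the EGR1 window chr5:138465229-138465478 on the plus strand. Each is printed 5′ to 3′ with matches to the words searched in capitals.
JUN: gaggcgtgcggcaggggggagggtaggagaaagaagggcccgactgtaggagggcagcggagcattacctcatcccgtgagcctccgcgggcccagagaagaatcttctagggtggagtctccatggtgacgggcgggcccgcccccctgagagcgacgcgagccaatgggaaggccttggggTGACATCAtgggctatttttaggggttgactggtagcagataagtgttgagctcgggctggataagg
JUNB: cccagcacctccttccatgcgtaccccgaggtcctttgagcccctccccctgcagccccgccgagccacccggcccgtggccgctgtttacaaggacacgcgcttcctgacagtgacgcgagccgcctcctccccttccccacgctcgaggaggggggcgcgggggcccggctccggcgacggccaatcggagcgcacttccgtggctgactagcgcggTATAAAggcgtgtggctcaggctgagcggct
FOS: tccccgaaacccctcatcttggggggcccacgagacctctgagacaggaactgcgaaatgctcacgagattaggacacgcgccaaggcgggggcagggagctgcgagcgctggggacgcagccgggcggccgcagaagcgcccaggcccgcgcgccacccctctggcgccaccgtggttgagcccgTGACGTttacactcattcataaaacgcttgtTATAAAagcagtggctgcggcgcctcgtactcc
EGR1: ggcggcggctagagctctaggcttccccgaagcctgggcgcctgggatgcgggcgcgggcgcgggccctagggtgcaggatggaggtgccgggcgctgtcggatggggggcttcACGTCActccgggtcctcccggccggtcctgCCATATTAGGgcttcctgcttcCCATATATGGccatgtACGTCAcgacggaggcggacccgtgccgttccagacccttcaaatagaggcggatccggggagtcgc

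The words searched on both strands were the AP-1 site TGACTCA, the variant TGACATCA known from the JUN promoter, the core of the cAMP response element TGACGT, the E-box CACGTG of MAX dimers, the E2F word GCGGGAA, the TATA box TATAAA and the CArG box of serum response factor. The variant TGACATCA overlaps no other word, and a full cAMP response element holds the core on both strands. In the JUN window, TGACATCA lay 67 to 60 bases before the start, a word held by 2.36% of 34788 promoter windows of the same length. FOS held TGACGT 64 to 59 bases before the start and TATAAA 33 to 28 bases before it, while JUNB held only TATAAA, at 31 to 26 bases. These words are in 7.09% and 10.8% of all windows. EGR1 held CArG boxes at 105 to 96 and at 83 to 74 bases, a word in 1.17% of windows, and the reverse complement of TGACGT at 136 and at 67 bases before the start. Among the windows not printed, the core TGACGT was in FOSL2, FOSB and JUND, and TGACATCA was in 1 of the 2 ATF3 windows. No window of the 8 factors held TGACTCA (4.21% of all windows), CACGTG (6.31%) or GCGGGAA (5.52%), which says only that these letters are not in this stretch. The same limit applies to the CArG box, found only in the EGR1 window, and sites farther upstream were not searched.

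Against WT, 7 of the 10 factors rose in the 4 PCGF6-KO libraries and none fell, where 14.9% of all tested genes rose, 8.70% fell and 23.6% were called in either direction. The 7 were JUN, JUNB, JUND, FOS, FOSL1, FOSL2 and ATF3. In clone 1 the same 7 genes and FOSB rose and none fell, beside 16.0% of all genes that rose, 8.80% that fell and 24.8% called. In clone 2 the same 7 genes rose and none fell, beside 16.9%, 12.5% and 29.4% of all genes. The median log2 fold change of the 10 was 1.30 for both clones together, 1.07 in clone 1 and 1.52 in clone 2, where the median of all tested genes was 0.00 in each comparison. For 9 of the 10, all of them but EGR1, every PCGF6-KO library was above both WT libraries in CPM, an order that 29.5% of all tested genes showed. Taken alone, clone 1 and clone 2 each lay above WT for the same 9, beside 36.6% and 38.0% of all genes.

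**Figure D1:**
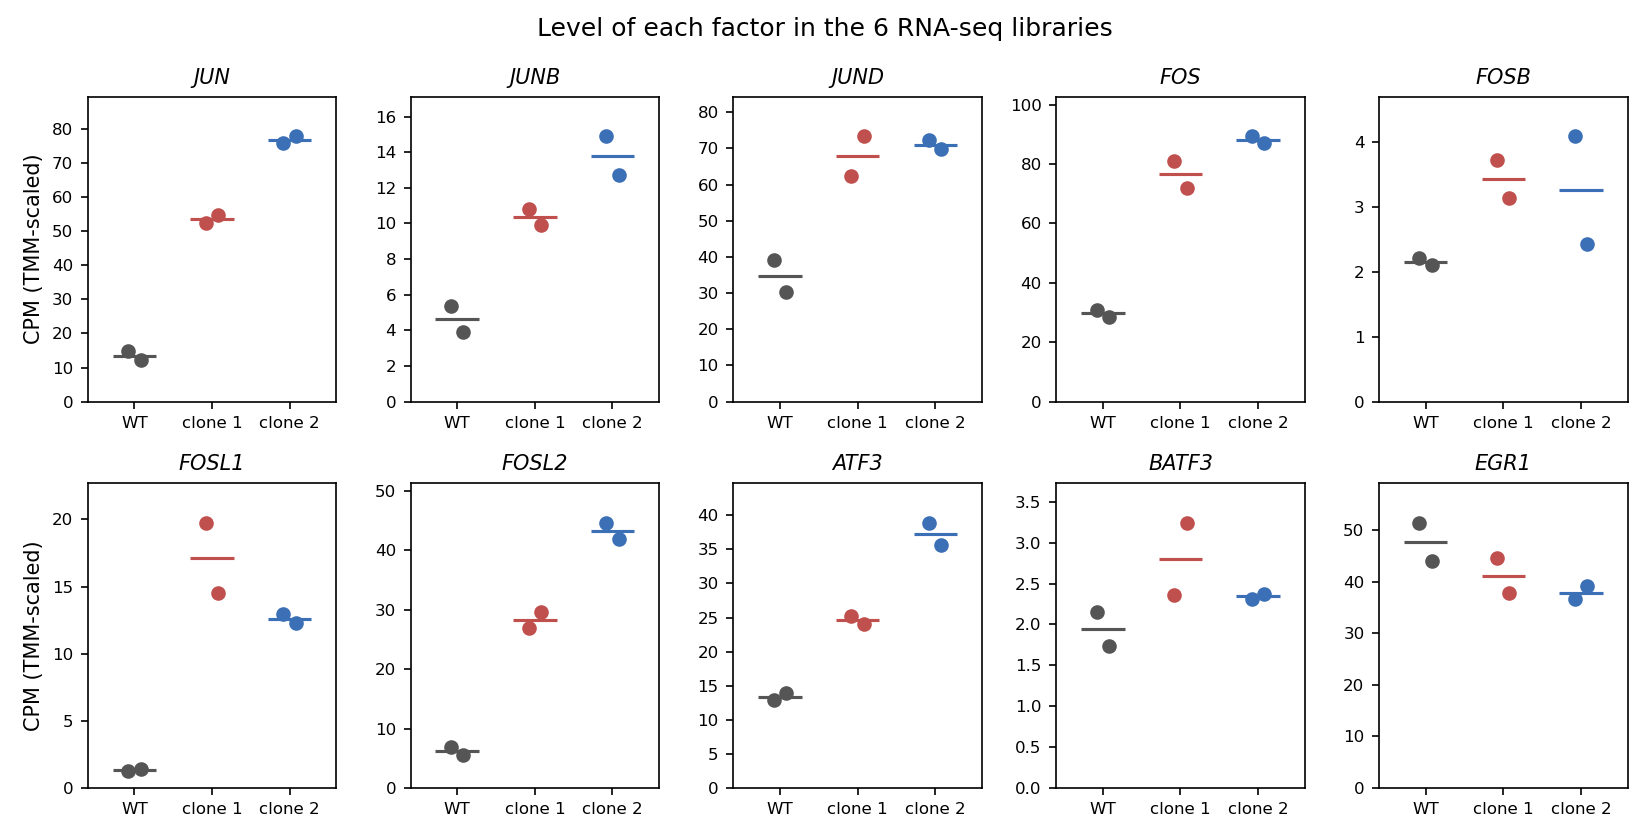
Level of each of the 10 factors in CPM (vertical axis, linear from 0) in the 2 WT, 2 clone 1 and 2 clone 2 libraries. Points are libraries and lines are group means, and for 9 of the 10 genes every clone library lies above both WT libraries, with EGR1 as the exception.

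JUN, the AP-1 subunit that binds DNA alone or with a FOS partner, is a single-exon gene on chromosome 1 (GRCh38, 58776845 to 58784048, minus strand). WT libraries held it at 14.9 and 12.1 CPM, clone 1 libraries at 52.4 and 54.7 CPM, and clone 2 libraries at 75.8 and 77.8 CPM. The 3 groups did not overlap, with WT lowest and clone 2 highest. JUN rose by 1.99 on the log2 scale in clone 1 (SE 0.10, edgeR adjusted p = 3.50e-15) and 2.51 in clone 2 (SE 0.10, edgeR adjusted p = 1.41e-17), and by 2.27 in the 4 PCGF6-KO libraries as 1 group (SE 0.20, edgeR adjusted p = 4.25e-05). In these bulk libraries, more RNA per cell and a larger share of cells that carry the RNA cannot be told apart, here or for any gene below.

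JUNB, a weaker activator than JUN that often opposes it, has 1 exon on chromosome 19 (12791486 to 12793315, plus strand). Its CPM read 5.34 and 3.90 for WT, 10.8 and 9.90 for clone 1, and 14.9 and 12.7 for clone 2. All clone libraries were above WT, and those of clone 2 were above those of clone 1. It rose by 1.17 on the log2 scale in clone 1 (SE 0.17, edgeR adjusted p = 1.89e-06) and 1.58 in clone 2 (SE 0.16, edgeR adjusted p = 5.54e-09). JUNB lies within the span of HOOK2 on the opposite strand, and since the strand setting of the counting is not given in the sources used here, reads of these 2 genes may not be separable. HOOK2 went the other way in counts, from 813 and 798 for WT down to 698 and 663 for clone 1, and to 575 and 516 for clone 2.

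JUND, the JUN family member that is kept at a steady level in most resting cells, has 1 exon on chromosome 19 (18279694 to 18281622, minus strand). Levels of 39.2 and 30.2 CPM were measured for WT, of 62.4 and 73.3 CPM for clone 1, and of 72.2 and 69.8 CPM for clone 2. WT was below both clones, and the clones overlapped. Its log2 fold change was 0.97 in clone 1 (SE 0.10, edgeR adjusted p = 7.63e-09) and 1.03 in clone 2 (SE 0.10, edgeR adjusted p = 1.79e-09), the smallest increase of the 3 JUN genes.

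The make-up of the JUN family shifted with these unequal increases. Per length, in TPM (transcript counts scaled to the gene's length and the library), the 3 genes summed to 111 ± 19.9 TPM in WT (SD, n = 2), 250 ± 20.9 in clone 1 (SD, n = 2) and 277 ± 4.35 in clone 2 (SD, n = 2). JUND made up 74.6% of the family sum in WT, 63.5% in clone 1 and 56.6% in clone 2. JUN made up 15.3%, 26.5% and 32.2% in the same order, and the libraries of the 3 groups did not overlap for either share. JUNB stayed near a constant share of the sum, at 10.1%, 10.0% and 11.2%. These shares were not tested and are given as a description.

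FOS, the founding partner of JUN and the best known immediate early gene, spans 4 exons on chromosome 14 (75278826 to 75282230, plus strand). FOS stood at 30.9 and 28.6 CPM for WT, at 81.1 and 72.0 CPM for clone 1, and at 89.3 and 86.9 CPM for clone 2. The WT libraries were the lowest, and the clones did not overlap. The increase was 1.36 on the log2 scale in clone 1 (SE 0.08, edgeR adjusted p = 2.25e-13) and 1.57 in clone 2 (SE 0.08, edgeR adjusted p = 9.30e-15).

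FOSL1, also called FRA1, is a FOS family member that lacks the transactivation domain of FOS and is known from migrating and mesenchymal cells. It lies on chromosome 11 (65892049 to 65900573, minus strand) and was read 20 and 23 times for WT, 378 and 264 times for clone 1, and 235 and 197 times for clone 2. In CPM, WT libraries were at 1.23 and 1.38, against 19.8 and 14.5 for clone 1 and 13.0 and 12.3 for clone 2. Clone 1 was here the higher clone, without overlap. FOSL1 had the largest fold change of the 10 factors, 13.1-fold in clone 1 (log2 3.71, SE 0.20, edgeR adjusted p = 3.22e-14) and 9.64-fold in clone 2 (log2 3.27, SE 0.21, edgeR adjusted p = 9.57e-13). Among all 17672 tested genes it ranked 558 from the top by the fold change of both clones together.

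FOSL2, or FRA2, the other FOS-related antigen, lies on chromosome 2 (28392448 to 28417317, plus strand). The WT libraries read 6.88 and 5.51 CPM, those of clone 1 read 26.9 and 29.6 CPM, and those of clone 2 read 44.7 and 41.8 CPM. The groups were fully apart, in the order WT, clone 1, clone 2, as for JUN. FOSL2 rose by 2.19 on the log2 scale in clone 1 (SE 0.12, edgeR adjusted p = 5.65e-14) and 2.80 in clone 2 (SE 0.12, edgeR adjusted p = 1.20e-16). Its span overlaps the antisense gene FOSL2-AS1 and a lncRNA with no symbol, which were not analysed here, so a part of these counts is uncertain.

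FOSB, the close relative of FOS, lies on chromosome 19 (45467995 to 45475179, plus strand) and was thinly covered, with 36 and 35 counts for WT, 71 and 57 for clone 1, and 74 and 39 for clone 2. In the same order, its CPM values were 2.211 and 2.097, then 3.71 and 3.14, then 4.08 and 2.43. Both clones were above WT, but the clone 2 libraries spanned those of clone 1. FOSB was called in clone 1, with a log2 fold change of 0.67 (SE 0.26, edgeR adjusted p = 0.0407), and not in clone 2, at 0.61 (SE 0.27, edgeR adjusted p = 0.0620), and the difference between the clones was −0.06 with a 95% interval of −0.56 to 0.44. The clone 1 call was lost without the WT library 1 (adjusted p = 0.0930), without the WT library 2 (0.128), without the clone 1 library 1 (0.189) and with DESeq2 (0.236). FOSB also overlaps ERCC1 on the opposite strand, which had between 542 and 708 counts a library.

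Summed per length, the FOS family was at 49.5 ± 2.51 TPM in WT (SD, n = 2), 163 ± 14.9 in clone 1 (SD, n = 2) and 167 ± 4.46 in clone 2 (SD, n = 2), which is 3.29 and 3.37 times WT. The JUN family sum was 2.25 and 2.49 times WT. FOS made up 82.5% of the FOS family in WT and 63.5% and 67.2% in clones 1 and 2. FOSL1 grew from 6.23% to 24.2% and 16.5%, and FOSL2 from 7.76% to 10.7% and 14.9%. FOSB, at 3.49% in WT, was at 1.65% and 1.44% in the clones. Within this family FOS gained the most in TPM, and FOSL1 and FOSL2 gained in share.

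ATF3, a bZIP factor that pairs with JUN proteins and is a hallmark of stress responses, lies on chromosome 1 (212565334 to 212620777, plus strand). For WT it was measured at 12.8 and 13.9 CPM, for clone 1 at 25.2 and 24.0 CPM, and for clone 2 at 38.9 and 35.7 CPM. The 3 groups were apart in the same order as for JUN and FOSL2. ATF3 rose by 0.88 on the log2 scale in clone 1 (SE 0.11, edgeR adjusted p = 1.35e-07) and 1.48 in clone 2 (SE 0.10, edgeR adjusted p = 3.11e-12).

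BATF3, a bZIP factor best known from dendritic cells that dimerises with JUN proteins, also lies on chromosome 1 (212686417 to 212699840, minus strand). Its 29 to 59 counts a library gave 2.15 and 1.74 CPM for WT, 2.35 and 3.25 for clone 1, and 2.32 and 2.37 for clone 2. Clone 1 library 2 was the highest, and the other clone libraries were close to the upper WT library. The log2 fold change for both clones together was 0.40 (95% interval −0.17 to 0.98, edgeR adjusted p = 0.245), which leaves a moderate increase within the error.

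EGR1, the zinc finger factor, lies on chromosome 5 (138465479 to 138469303, plus strand) and was the only factor with a fold change below 1. The WT libraries were at 51.53 and 43.99 CPM, those of clone 1 at 44.6 and 37.8 CPM, and those of clone 2 at 36.7 and 39.2 CPM. Clone 1 overlapped WT, and clone 2 was below it. The log2 fold change of both clones together was −0.27 (95% interval −0.50 to −0.04, edgeR adjusted p = 0.0680), and that of clone 2 was −0.33 (SE 0.10, edgeR adjusted p = 0.00548), under the fold threshold. The interval for both clones together lies below the increase of FOS, whose lower bound was 1.23.

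**Figure D2:**
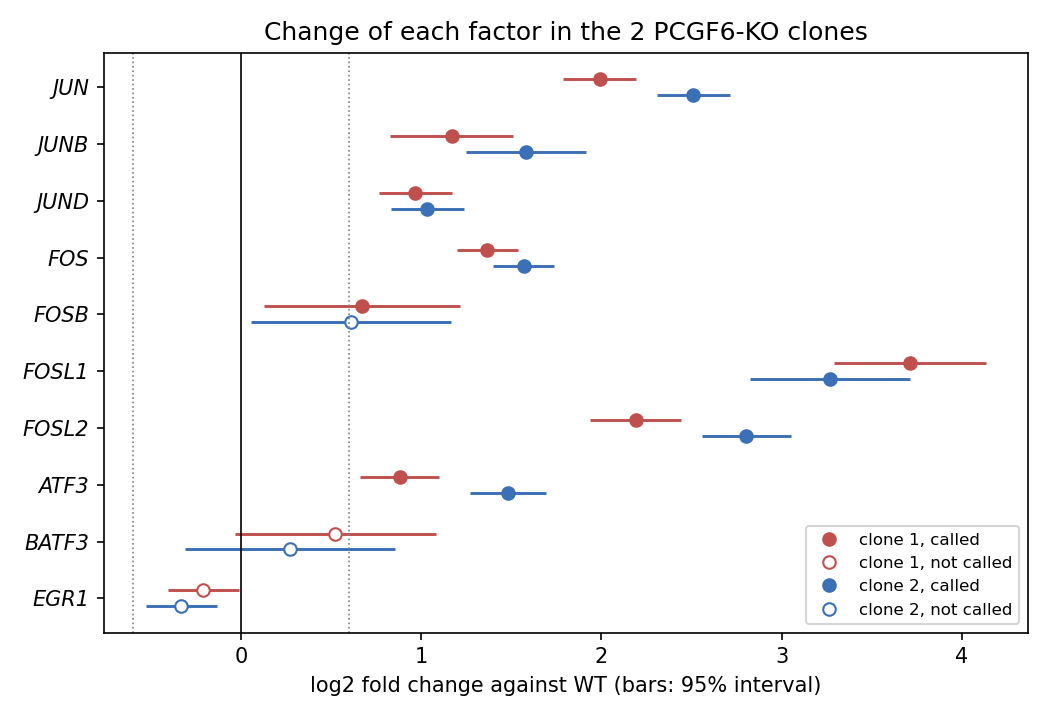
Log2 fold change of each of the 10 factors against WT (horizontal axis) in clone 1 (red) and clone 2 (blue), with 95% intervals as bars, filled points for called genes and dotted lines at the fold threshold of 0.6. FOSL1, FOSL2 and JUN lie farthest right, and EGR1 lies left of 0 in both clones.

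The clones were also compared directly. Both share the same WT libraries as control, so likeness of their changes against WT is not a result in itself. FOSL2 was higher in clone 2 than in clone 1 by 0.61 (SE 0.10, edgeR adjusted p = 3.39e-05) and ATF3 by 0.60 (SE 0.09, edgeR adjusted p = 3.53e-05). These 2 of the 10 factors rose in that comparison, where 3.73% of all tested genes rose, 4.14% fell and 7.87% were called, and both sat close to the fold threshold. The ATF3 call was lost without the WT library 2 (0.59), without the clone 1 library 2 (0.56) and without the clone 2 library 1 (0.54), and the FOSL2 call without the clone 1 library 1 (0.55) and without the clone 2 library 1 (0.57), all with adjusted p-values under the threshold. Upper-quartile normalization ended both calls (FOSL2 0.59, ATF3 0.58), and a minimum of 10 counts in every library ended that of ATF3 (0.597). JUN differed by 0.52 (SE 0.08, edgeR adjusted p = 4.08e-05) and JUNB by 0.42 (SE 0.14, edgeR adjusted p = 0.0367), both below the fold threshold. FOSL1 went the other way, at −0.44 (SE 0.14, edgeR adjusted p = 0.0221), and was called without the clone 1 library 2 (−0.65, edgeR adjusted p = 0.00140). For FOS the difference was 0.20 (95% interval 0.05 to 0.36, edgeR adjusted p = 0.0589) and for JUND 0.07 (−0.13 to 0.26, edgeR adjusted p = 0.686). PCGF6 RNA also differed between the clones, by 0.90 (SE 0.15, edgeR adjusted p = 5.44e-05), higher in clone 2. Its part in the other differences was not tested.

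The order of the factors by level per length changed around EGR1. In WT, JUND (82.9 ± 15.0 TPM, SD, n = 2) and EGR1 (67.7 ± 7.37) led and overlapped, followed by FOS (40.9 ± 2.12). JUN (16.9 ± 2.40) and ATF3 (14.7 ± 0.873) came next and overlapped each other, then JUNB (11.3 ± 2.47). BATF3 (3.19 ± 0.468) overlapped both FOSL2 (3.85 ± 0.589) above it and FOSL1 (3.07 ± 0.259) below it, while FOSL2 and FOSL1 were apart, and FOSB was lowest (1.73 ± 0.0594). In clone 1 the order was JUND (159 ± 19.6), FOS (103 ± 7.72), JUN (66.1 ± 2.61), EGR1 (57.3 ± 6.17) and FOSL1 (39.7 ± 8.22), with ATF3, JUNB, FOSL2, BATF3 and FOSB below. In clone 2 it was JUND (157 ± 3.09), FOS (112 ± 1.64), JUN (89.2 ± 2.07) and EGR1 (49.7 ± 2.57), then ATF3, JUNB, FOSL1, FOSL2, BATF3 and FOSB, and in both clones no neighbours overlapped. EGR1 thus stood above FOS and JUN in WT and below both in each clone.

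Of 15 other bZIP proteins that can pair with AP-1 proteins, 14 were tested, 6 rose and 1 fell in the clones, with a median log2 fold change of 0.42. Beside this, 14.9% of all tested genes rose and 8.70% fell. CREB5, a partner of JUN that binds cAMP response elements, went from 34 and 33 counts for WT to 368 and 357 for clone 1 and 501 and 446 for clone 2, and it rose by 3.53 (SE 0.24, edgeR adjusted p = 7.47e-06). JDP2, a repressive dimer partner of JUN, rose by 1.68 (SE 0.22, edgeR adjusted p = 0.000381), from 186 and 180 counts in WT to between 507 and 819 in the clones. MAFF, a small MAF protein, rose by 1.47 (SE 0.16, edgeR adjusted p = 0.000139). The gene that fell was BATF2, a relative of BATF3, with 61 and 49 counts for WT, 26 and 13 for clone 1, and 7 in each library of clone 2 (log2 fold change −2.17, SE 0.42, edgeR adjusted p = 0.00357). BATF2 was named after its values were seen.

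Among 34 other immediate early genes, 32 were tested, and for both clones together 17 rose and none fell, with a median of 0.79. The shares over all tested genes were 14.9% that rose and 8.70% that fell. In clone 2 alone 17 rose and 1, ARC, fell, beside 16.9% and 12.5% of all genes. ARC had 78 and 84 counts for WT, 73 and 74 for clone 1, and 33 and 20 for clone 2. Its log2 fold change in clone 2 was −1.66 (SE 0.24, edgeR adjusted p = 2.44e-06), and it was named after its values were seen. RHOB, a small GTPase of the endosome, went from 237 and 242 counts for WT to 2819 and 2630 for clone 1 and 3333 and 2925 for clone 2, a rise of 3.50 (SE 0.14, edgeR adjusted p = 3.96e-07). NR4A3, an orphan nuclear receptor, rose by 3.06 (SE 0.45, edgeR adjusted p = 0.000802) from 8 and 3 counts, and BTG2, an antiproliferative gene, by 2.65 (SE 0.22, edgeR adjusted p = 2.76e-05) from 17 and 14. Unlike EGR1, its paralog EGR2 rose, with 13 and 14 counts for WT, 98 and 96 for clone 1, and 29 and 32 for clone 2 (log2 fold change 2.09, edgeR adjusted p = 0.0212). EGR2 was lower in clone 2 than in clone 1 (edgeR adjusted p = 2.78e-05), and it too was named after its values were seen. EGR3 and EGR4 had at most 14 counts a library and were not tested.

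Upstream of the immediate early response, the share of genes called was close to that of all tested genes. Of 27 genes of serum response factor, its ELK and MRTF partners and the MAP kinase cascades, all tested, 6 rose and 1 fell, with a median of 0.10, where 14.9% of all tested genes rose and 8.70% fell. MAPK10, a JNK isoform, rose by 1.48 (SE 0.22, edgeR adjusted p = 0.000939) and ELK3 by 1.10 (SE 0.15, edgeR adjusted p = 0.000564). SRF, the gene of serum response factor itself, rose by 0.71 (SE 0.07, edgeR adjusted p = 6.25e-05). The others that rose were MAP3K1 (1.09), MAPK7 (0.70) and RPS6KA3 (0.62), the last not called in clone 1. SRF and these others were named after their values were seen. MAP2K6, an activator of p38, fell by 1.30 (SE 0.09, edgeR adjusted p = 6.99e-06), from 1029 and 1172 counts in WT to between 471 and 505 in the clones.

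Of 28 genes often used as AP-1 targets in other cells, 23 were tested. For both clones together 16 rose and 1, the gelatinase gene MMP9, fell. Over all tested genes, 14.9% rose and 8.70% fell. MMP9 was called in clone 1 (−1.15) and not in clone 2 (−0.40), where HMOX1 was the gene that fell (−0.77, SE 0.09, edgeR adjusted p = 1.47e-07). MMP9 and HMOX1 were named after their values were seen. The median log2 fold change of the 23 was 2.28, or 1.65 with the 3 genes at or near 0 in WT set at their bound. TNC, a matrix glycoprotein, was read 230 and 260 times for WT, 9809 and 9267 times for clone 1, and 7485 and 6417 times for clone 2, a rise of 4.95 (SE 0.15, edgeR adjusted p = 1.19e-07). SPP1, the secreted phosphoprotein osteopontin, rose by 4.14 (SE 0.25, edgeR adjusted p = 3.86e-06), from 750 and 739 counts to between 10938 and 17523. IL6, an inflammatory cytokine, was read 3 and 0 times for WT, 66 and 56 times for clone 1, and 127 and 136 times for clone 2, at least 30.2-fold higher against a floor of 3 counts in each WT library. Whether AP-1 bound these genes in these cells was not tested. The list sum was 1455 to 1484 CPM in WT, 5182 to 5253 in clone 1 and 6539 to 6615 in clone 2.

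Immediate early genes can also be induced while cells are detached and lysed, and 2 lists bear on that. Of 12 heat shock genes, 9 had a log2 fold change above 0, and the median was 0.28. Among the 12, 3 rose and none fell by the thresholds, where 14.9% of all tested genes rose and 8.70% fell. The 3 were HSPB1 (0.86, SE 0.09, edgeR adjusted p = 0.000118), HSPA1A (0.79, SE 0.09, edgeR adjusted p = 0.000180) and BAG3 (0.75, SE 0.11, edgeR adjusted p = 0.000786). The list sum was 11232 to 11391 CPM in WT, 10509 to 10886 in clone 1 and 11528 to 11938 in clone 2. It is set mostly by HSP90AB1, HSPA8, HSP90AA1 and HSPD1, none of them called. HSP90AB1 had 76846 and 79131 counts in WT, against 221 and 225 for HSPA1A, so the sum says little on the genes that rose. Of 12 genes of the integrated stress response, 4 rose and none fell, with a median of 0.57. They were DDIT4 (1.53, SE 0.24, edgeR adjusted p = 0.00112), PPP1R15A (1.01, SE 0.15, edgeR adjusted p = 0.000786), VLDLR (0.98, SE 0.16, edgeR adjusted p = 0.00132) and, outside the naming rule, DDIT3 (1.08, SE 0.29, edgeR adjusted p = 0.0172). The sum of this list was 862 to 878 CPM in WT, 834 to 842 in clone 1 and 1053 to 1081 in clone 2. Most of it came from ATF4, which was not called and had 10644 and 10435 counts in WT. The part of handling stress in the levels of the 10 factors was not tested.

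Markers of other cell states moved with the AP-1 genes. Of 18 mesendoderm markers, 16 were tested and all 16 rose, where 14.9% of all tested genes rose and 8.70% fell. HAND1, a bHLH factor of early mesoderm, was at 0 counts for WT, 672 and 770 for clone 1, and 2012 and 1575 for clone 2, at least 394-fold higher. TBXT, or Brachyury, was read 0 and 12 times for WT, 3508 and 3065 times for clone 1, and 5515 and 4636 times for clone 2, and MSGN1, a factor of presomitic mesoderm, at 0 in WT, was at least 24.0-fold higher. SOX17 and MESP1 were also at 0 counts in WT. The median was 6.90, or 4.35 with 5 genes at their bound, and the list sum was 172 CPM in both WT libraries, 1349 to 1370 in clone 1 and 1690 to 1703 in clone 2. Most of this WT sum was KDR, with 2435 and 2491 counts in WT and a log2 fold change of 1.68, so the sum understates the rise of the others. Of 10 mesenchyme and fibroblast markers, 9 were tested, 8 rose and 1, THY1, fell, with a median of 6.49, or 2.44 with 3 genes at their bound. LUM, a proteoglycan, and TWIST1, a mesenchymal bHLH factor, were at 0 counts in WT and were at least 165-fold and 57.4-fold higher in the clones, and DCN and FAP were at 0 in WT too. COL3A1, a fibrillar collagen, had 6 and 1 counts in WT and between 4601 and 7977 in the clones. This list summed to 838 to 848 CPM in WT, 1762 to 1779 in clone 1 and 2012 to 2096 in clone 2. Most of the WT sum was THY1, the gene that fell, with 10103 and 10096 counts in WT, so the sum understates the rise of the others.

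Of 12 pluripotent markers, 3 fell and none rose, where 8.70% of all tested genes fell and 14.9% rose. The median was −0.21, and the sum was 11716 to 12198 CPM in WT, 10126 to 10213 in clone 1 and 9143 to 9440 in clone 2. ZFP42, a zinc finger gene of pluripotent cells, had 304 and 329 counts in WT and 1 or 2 in each clone library. DNMT3B, the de novo DNA methyltransferase, fell by 1.14 (SE 0.14, edgeR adjusted p = 0.000250), and the last of the 3, named after its values were seen, was SOX2 (−0.69, SE 0.19, edgeR adjusted p = 0.0178). SOX2 was called in clone 2 (−1.04) and not in clone 1 (−0.41), where 2 of the 12 markers fell. Mesendoderm and mesenchyme sums thus moved in the direction of JUN, FOS, FOSL1, FOSL2 and ATF3, and their part in the change of these factors was not tested.

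The genes whose pattern over the 6 libraries was nearest to that of JUN, by the root mean square difference in log2 CPM relative to WT among 10310 genes, were NRK (0.0972), NDRG1 (0.110) and LRRC3 (0.114). NRK, a kinase gene, was read 227 and 222 times for WT, 1139 and 1051 times for clone 1, and 1427 and 1275 times for clone 2. For FOSL1, with clone 1 as the higher clone, they were LRP2 (0.161), LINC01108 (0.223) and PRDX1P1 (0.256), of which the last is a pseudogene that can share reads with its parent. LRP2, an endocytic receptor gene, was read 27 and 23 times for WT, 390 and 316 times for clone 1, and 232 and 226 times for clone 2.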

How the data were processed

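RNA-seq of 6 libraries was used. The authors trimmed reads with Trim Galore (0.6.2), aligned them to GRCh38 with HISAT2 (2.1.0), counted them per gene with featureCounts and deposited raw counts with gene lengths. The annotation release, strand setting and treatment of multi-mapped reads are not given in the sources used here. ChIP-seq was not analysed here.

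From these counts, edgeR (4.0.16, R 4.3.3) was run with filterByExpr, TMM scaling and the quasi-likelihood test, with Benjamini-Hochberg adjustment over 17672 genes. The 4 PCGF6-KO libraries were compared with WT as 1 group, and contrasts of a second model with 3 groups compared WT, clone 1 and clone 2 in pairs. The study's thresholds, a log2 fold change beyond 0.6 either way and an adjusted p below 0.05, defined a called gene. SEs were derived from the fold change and its F statistic. The common biological coefficient of variation was 0.120, and replicates differed by 2.40 (WT), 4.50 (clone 1) and 3.20 (clone 2) times counting error as chi-square per degree of freedom, so no library was a duplicate. TPM were computed from counts and deposited lengths. Bounds for genes with at most 3 counts in each WT library used 3 counts in each as the floor.

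The members and the 9 other lists were chosen with earlier results of these data known. Lists are described by counts and medians without a set test. Of each list, the 3 genes with the largest absolute change were named among those called alike in both clones and averaging 1 log2 CPM or more, and for JUN and FOSL1 the 3 nearest genes averaging 3 log2 CPM or more. ATF4, DDIT3 and PPP1R15A are in 2 lists each. Positions are from GENCODE 44 and promoters from RefSeq. Alternatives were DESeq2 (1.42.0), other scalings, filters and thresholds, the mean of the clones, the replicate block, and each library left out in turn. The steps were tested on simulated counts. Python 3.11.15 with numpy 2.4.6, pandas 2.3.3 and matplotlib 3.10.9 was used for summaries and plots.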

Additional observations from a re-analysis of the deposited data

Results flagged for a closer look

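BATF3 stood apart in 1 of the 4 PCGF6-KO libraries. Clone 1 library 2, at 3.25 CPM, was separated from the next value by 0.944 of the whole range of these 4 libraries, and chance takes about 1 in 20 groups past the critical value used. That rate holds for a single group of like libraries, whereas these 4 come from 2 clones, so it is only a rough guide here.

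Between the clones, 2 of the 10 factors passed both the adjusted p of edgeR's test and the fold threshold, and 5 passed the adjusted p alone. The log2 difference of clone 2 from clone 1 was 0.61 for FOSL2 and 0.60 for ATF3. Among the other genes named, clone 2 was also higher for IL6 (1.24), SPP1 (0.64), MMP9 (0.76), HAND1 (1.43), TBXT (0.75), MSGN1 (2.19), COL3A1 (0.79) and TWIST1 (1.07). It was lower for EGR2 (−1.54), ARC (−1.35), BATF2 (−1.33) and SOX2 (−0.63). The mesendoderm list sum was higher in clone 2 in both libraries, at 1690 and 1703 CPM against 1349 and 1370 in clone 1, and its part in the FOSL2 and ATF3 differences was not tested.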

How the results depend on the processing

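The calls of JUN, JUNB, JUND, FOS, FOSL1, FOSL2 and ATF3 against WT held under every alternative run, for both clones together and for each clone, and BATF3 was never called. FOSB was called for both clones together without clone 2 replicate 2 (adjusted p = 0.0371), with the mean of the clones (0.0250) and at a fold over 1.5 with unadjusted p, and in clone 2 with at least 10 counts in every library (0.0493), without clone 2 replicate 2 (0.00911) and at a fold over 1.5. EGR1 was called in clone 2 only by adjusted p alone, and its adjusted p for both clones together ran from 0.00729 to 0.459. Between the clones, the 2 factors called became 0 with upper-quartile normalization, 1 with at least 10 counts in every library and 5 by adjusted p alone. Leaving out each library in turn gave 0 to 2. Without clone 1 replicate 1 the uncalled differences of JUND (−0.042), FOSB (0.07) and EGR1 (0.0079) changed sign, as did FOSB without clone 2 replicate 2 (0.25). Over all left-out libraries these differences ran from −0.042 to 0.18 for JUND, −0.50 to 0.25 for FOSB and −0.24 to 0.0079 for EGR1. The cause was not tested.

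Over all genes, 4167 were called for both clones together, 4379 for clone 1, 5197 for clone 2 and 1390 between the clones. By adjusted p alone these became 6556, 8002, 8904 and 3442, and DESeq2 called 810 between the clones. Left-out libraries gave 3041 to 4251, 4068 to 4322, 4794 to 5192, and 1102 to 1419. Factors called against WT stayed at 7 to 8 in each of the 3 comparisons. The replicate numbers do not pair the libraries (correlations of deviations 0.05, 0.07 and 0.15 over 14850 genes). With the replicate block, 3876, 4420, 5233 and 1484 genes and 7, 8, 7 and 2 factors were called. Among other scalings, upper-quartile normalization moved the median of all genes most, from 0.003 to −0.042 in clone 2 against WT. FOSB and BATF3 had 29 to 74 counts a library, and whether deeper libraries would change their calls was not tested.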
